A study of Mus musculus with 12 samples.

Results

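The receptors of the signalling lymphocytic activation molecule (SLAM) family, their ligand CD48 and the adaptor SAP were followed through 4 groups of mouse invariant natural killer T (iNKT) cells. The set holds 8 of the 24781 genes in the deposited table, taken by symbol: Cd244, Slamf1, Slamf6, Slamf7, Ly9, Cd84, Cd48 and Sh2d1a, the gene of SAP. RNA came from lung or thymus of mice aged 6 weeks, and each library was made from 100 sorted cells that bore TCRbeta, NK1.1, the CD1d tetramer and CXCR6 at the surface. The fraction of that gate positive for CD244 (CD244+, named C2 in the labels) and the fraction negative for it (CD244-, named C1) were kept apart, which gives 3 libraries each of lung CD244+, lung CD244-, thymus CD244+ and thymus CD244- cells. All 4 groups share the rest of the gate, and the labels name neither a strain nor separate animals. The replicates are described as separately prepared libraries, so a p-value here covers the spread of these libraries alone, part or all of which could be technical.

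SLAM family receptors are immunoglobulin-like surface proteins of blood cells, most of which bind a copy of themselves on a neighbouring cell. CD244 instead binds CD48, a lipid-anchored protein with no cytoplasmic tail that also binds CD2. The tails of the receptors carry the immunoreceptor tyrosine-based switch motif. It takes up SAP and, through SAP, the kinase Fyn, or in the absence of SAP the inhibitory phosphatases. In mouse thymus, contacts between thymocytes through Slamf1 and Slamf6, relayed by SAP and Fyn, are required for iNKT cells to form.

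Of the 8 genes, 7 lie side by side on mouse chromosome 1 (GENCODE M21, build GRCm38, which is mm10), within 394.0 kb from 171559193 to 171953170, where Gm10521 is the one other protein-coding gene. Sh2d1a lies apart, on chromosome X from 42502453 to 42529330. The annotated spans of Cd244 (plus strand) and Ly9 (minus strand) overlap. Whether the counting used strand is not given in the sources used here, so molecules of these 2 genes may have been assigned to each other or discarded. Noncoding transcripts also overlap Slamf6, Slamf7 and Cd48, and the protein-coding gene Tenm1 overlaps Sh2d1a.

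**Figure D1:**
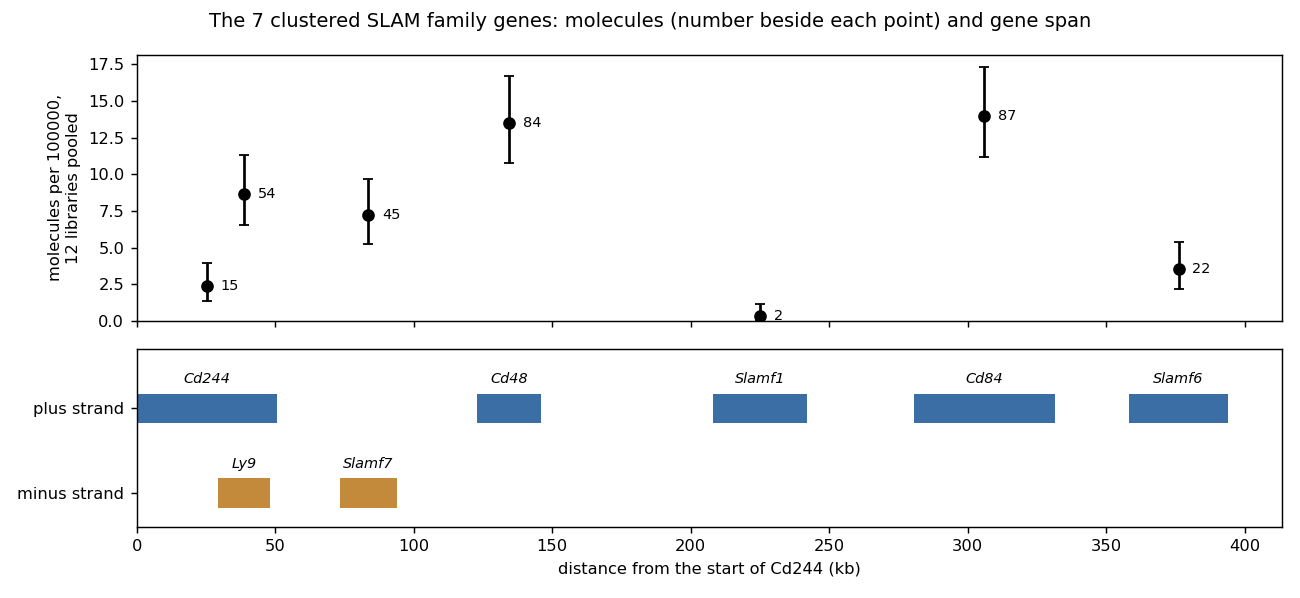
Gene spans of the 7 clustered genes by strand against distance from the start of Cd244 in kb (lower panel), and each gene's share of all molecules in the 12 libraries pooled, with exact 95% counting intervals (upper panel). The number beside a point is the gene's molecules, between 2 for Slamf1 and 87 for Cd84; the bars of Cd244 and Ly9 overlap on opposite strands.

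Matches to the switch motif are shown for the genes that the results below turn on, with the match in Cd48 for comparison. The coding sequence of 1 GENCODE transcript per gene was read in frame, on the coding strand, for the switch motif in its plain form (threonine, any residue, tyrosine, any 2 residues, then valine or isoleucine). Each line gives 18 bases from the threonine codon to the valine or isoleucine codon, with the tyrosine codon in capitals.
Cd244 site 1, exon 5, chr1:171577838-171577855, plus strand: acaataTATgaatatgtc
Cd244 site 2, exon 6, chr1:171579144-171579161, plus strand: accatgTACtctatgata
Cd244 site 3, exon 7, chr1:171580788-171580805, plus strand: acagtaTATtcagtagtc
Cd244 site 4, across the junction of exons 8 and 9, chr1:171581685-171582806, plus strand: accgtgTACgaggaggtt
Slamf6 site 1, exon 6, chr1:171939437-171939454, plus strand: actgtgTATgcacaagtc
Slamf6 site 2, exon 7, chr1:171941664-171941681, plus strand: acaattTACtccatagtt
Ly9 site 1, exon 8, chr1:171593912-171593929, minus strand: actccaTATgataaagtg
Ly9 site 2, exon 9, chr1:171593438-171593455, minus strand: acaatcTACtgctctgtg
Cd48 site 1, exon 2, chr1:171695903-171695920, plus strand: acctacTACatgagagtg

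Cd244 held 4 matches, Slamf1, Slamf6, Ly9 and Cd84 held 2 each, Slamf7 and Cd48 held 1 each, and Sh2d1a held 0. In the 6 receptors every match lay between 66.8% and 97.5% of the way along the coding sequence, towards the tail. The single match in Cd48 lay at 44.3%, in a protein that has no cytoplasmic tail. Across 21559 mouse coding genes searched in the same way, 7.9% held at least 1 match and 0.6% held at least 2. A match is a description of the letters and does not show a working site.

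The 4 groups differed in depth and in markers of other cells, and these values stand before the results that they touch. The values are unique molecules multiplied by 1 constant per library, and the molecules were recovered from them. The whole steps had not been checked separately in thymus CD244+ replicate 1, thymus CD244- replicate 2 and lung CD244+ replicate 2. In these, 94.3%, 94.4% and 94.9% of nonzero values came out whole, and the pooled counts include them. A library held 42520 to 51436 molecules in lung CD244+, 29696 to 32196 in lung CD244-, 56615 to 71789 in thymus CD244+ and 60120 to 67478 in thymus CD244- cells. The 11 T and iNKT cell markers in the table, all of them detected in every group, made up 15.0 to 23.6 of every 10000 molecules in lung CD244+ libraries, against 39.8 to 43.0 in lung CD244-, 36.3 to 42.3 in thymus CD244+ and 38.8 to 43.6 in thymus CD244- libraries. The 15 myeloid markers ran the other way, with 78.7 to 143 of every 10000 molecules in lung CD244+ libraries, against 1.01 to 2.65 in lung CD244-, 1.42 to 2.09 in thymus CD244+ and 1.05 to 1.78 in thymus CD244- libraries. Every one of the 15 was detected in lung CD244+ cells, while Apoe, Mrc1, Lyz2, Cd14, Adgre1 and the C1q genes had 0 molecules in all other groups. The 6 natural killer cell markers gave 3.33 to 7.58 of every 10000 molecules in lung CD244+ libraries, against 0 to 0.663 in lung CD244- ones, and 3.15 to 4.95 in thymus CD244+, against 0.374 to 0.832 in thymus CD244- ones, mostly from Fcer1g. The 7 B cell markers reached at most 1.18 and the 5 immature thymocyte markers at most 0.311 of every 10000 molecules in any library, and the 4 epithelial markers gave 0.614 to 3.12 in lung CD244+, 1.63 to 3.03 in lung CD244- and at most 0.158 in thymus libraries. In such bulk samples, fewer cells of a type and less RNA per cell cannot be told apart.

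**Figure D2:**
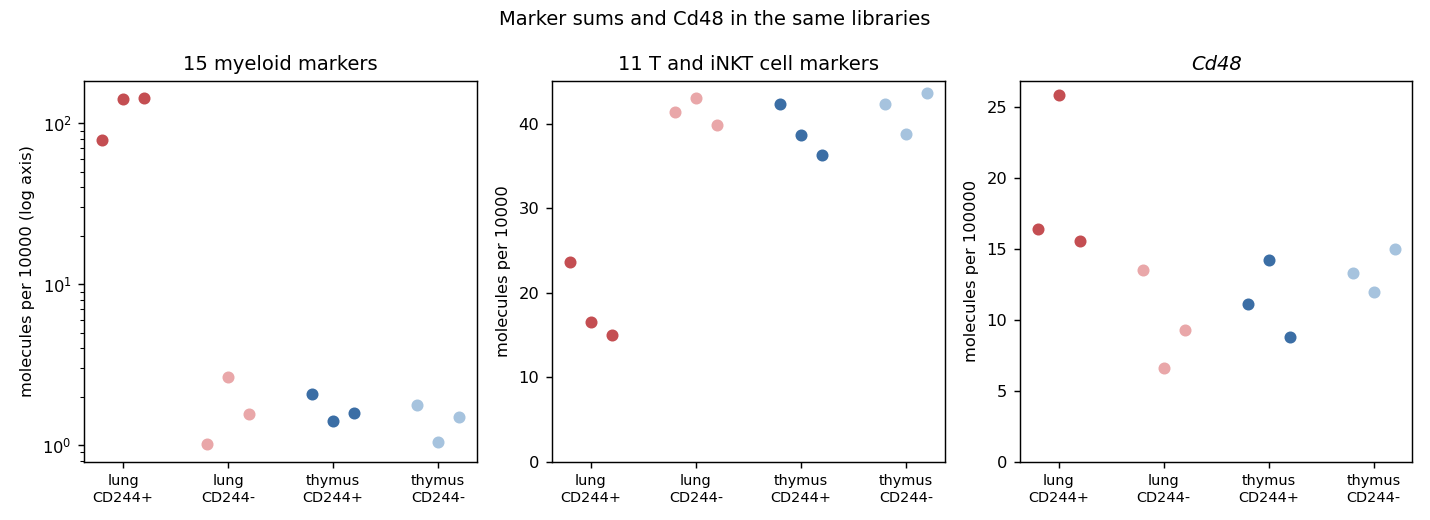
Summed myeloid markers (molecules per 10000, log axis), summed T and iNKT cell markers (molecules per 10000) and Cd48 (molecules per 100000), 1 dot per library, 3 libraries per group. The 3 lung CD244+ libraries stand at 78.7 to 143 for the myeloid sum, above all others, at 15.0 to 23.6 for the T and iNKT sum, below all others, and at 15.6 to 25.9 for Cd48, above all others.

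Cd244 encodes the receptor (also named 2B4) whose protein was the sort gate, so its RNA checks the labels. The 3 lung CD244+ libraries held 1, 1 and 0 molecules and the 3 lung CD244- libraries held 0, 0 and 0. The 3 thymus CD244+ libraries held 8, 1 and 4 molecules and the 3 thymus CD244- libraries again 0, 0 and 0. Every molecule of Cd244 was thus in a library labelled CD244+, 15 in all, and the thymus groups did not overlap.

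Pooled over 3 libraries, the share of Cd244 was 1.40 molecules per 100000 in lung CD244+ cells (exact 95% interval 0.170 to 5.06) and 6.78 in thymus CD244+ cells (3.61 to 11.6), where it was highest. The 0 counts allow up to 3.26 per 100000 in lung CD244- and 1.54 in thymus CD244- cells, counting 3 molecules over the group as the limit. In thymus the observed share in CD244+ cells was 4.39-fold that limit, and 2.70-fold to 6.06-fold with any 1 of the 6 libraries left out. With the counting error of both groups, the exact 95% interval of the ratio began at 3.09. Its start ranged from 1.48 to 4.21 with 1 library left out. In lung, 2 molecules against 0 are under the limit of 3 molecules and no difference was detectable at this depth. Between the CD244+ groups, lung held 0.207 times the share of thymus (0.0226 to 0.913). That interval reached 1 when any of 4 of the 6 libraries was left out, and without thymus replicate 1 the ratio was 0.336. Cd244 and Slamf1 did not pass the filter on low values (a value above 1 in at least 3 libraries) and have no test in the fit over all genes.

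**Figure D3:**
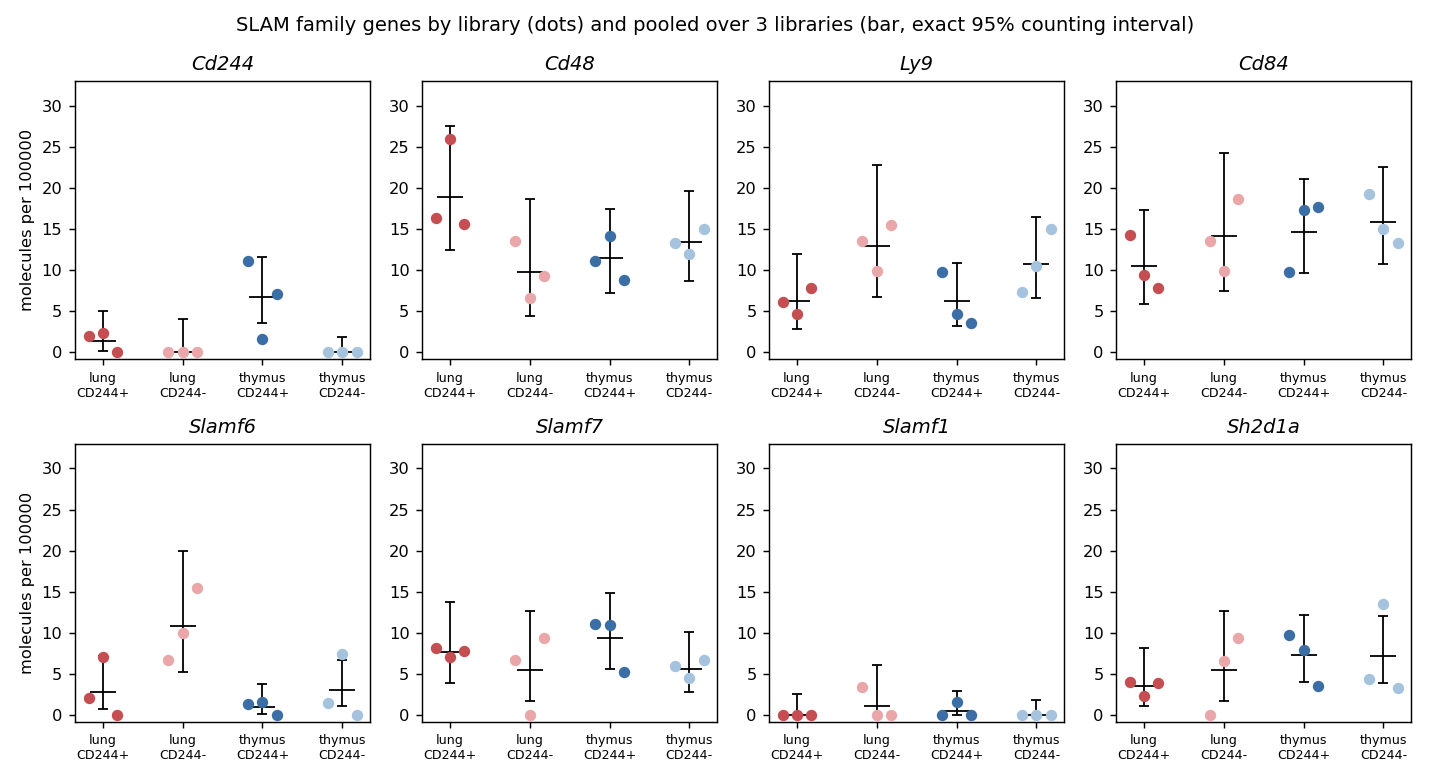
Molecules per 100000 of each gene in each library (dots) and pooled over the 3 libraries of a group (bar with exact 95% counting interval). Cd244 is at 0 in all 6 CD244- libraries, Ly9 in the lung CD244+ libraries (4.70 to 7.78) stays below the lung CD244- ones (9.95 to 15.5), and Cd48 in the lung CD244+ libraries (15.6 to 25.9) stays above them (6.63 to 13.5).

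Slamf6, the Ly108 receptor used in thymic selection of iNKT cells, was rare. The lung CD244+ libraries held 1, 3 and 0 molecules, and the lung CD244- libraries 2, 3 and 5 from fewer molecules in all. The thymus CD244+ libraries held 1, 1 and 0 molecules, and the thymus CD244- libraries 1, 5 and 0. The groups overlapped in both tissues, and 1 library, thymus CD244- replicate 2, held 5 of the 6 molecules of its group.

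Pooled shares of Slamf6 were 2.80 per 100000 (0.763 to 7.17) in lung CD244+ and 10.9 (5.21 to 20.0) in lung CD244- cells, and 1.04 (0.126 to 3.77) in thymus CD244+ and 3.09 (1.13 to 6.72) in thymus CD244- cells. Lung CD244- cells came highest, and the other 3 groups could not be separated from one another, since their intervals overlapped widely. The share in lung CD244+ cells was 0.258 times that in lung CD244- cells (0.0590 to 0.894), and over both tissues the CD244+ share was 0.321 times the CD244- one (0.103 to 0.864). Lung CD244- cells held 3.52 times the share of thymus CD244- cells (1.16 to 11.8). These intervals cover counting error only and none survived every removal of a library. The lung ratio was 0.0918 without lung CD244+ replicate 2 and 0.403 (0.0922 to 1.40) without lung CD244+ replicate 3. Over both tissues it was 0.184 without lung CD244+ replicate 2. The ratio between the CD244- groups was 13.9 without thymus CD244- replicate 2. In deposited units, Slamf6 averaged 0.587 ± 0.702 in lung CD244+ and 2.08 ± 0.861 in lung CD244- cells (SD, n = 3 each). The log2 fold change was -1.01 ± 0.41 (SE), and limma's adjusted p of 0.118 did not pass 0.05. Set against the molecules of 7 T cell genes in the same libraries (Cd3d, Cd3e, Cd3g, Cd247, Cd5, Cd6 and Thy1), Slamf6 had 2.68 molecules per 100 in lung CD244+ and 4.23 in lung CD244- cells. The value in lung CD244+ cells was 0.840 without replicate 2.

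Ly9, the CD229 receptor, held 3, 2 and 4 molecules in the lung CD244+ libraries and 4, 3 and 5 in the lung CD244- libraries. In thymus it held 7, 3 and 2 molecules in the CD244+ libraries and 5, 7 and 9 in the CD244- libraries. Corrected for depth, all 3 lung CD244+ libraries (4.70 to 7.78 per 100000) were below all 3 lung CD244- libraries (9.95 to 15.5), and the thymus groups overlapped.

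Pooled shares of Ly9 were 6.30 per 100000 (2.88 to 12) in lung CD244+ and 13.0 (6.74 to 22.8) in lung CD244- cells, and 6.26 (3.23 to 10.9) in thymus CD244+ and 10.8 (6.68 to 16.5) in thymus CD244- cells. Both CD244- groups stood above both CD244+ groups, with overlapping intervals throughout. In both tissues the CD244+ value was the lower one, 0.483 times that of CD244- cells in lung (0.180 to 1.25) and 0.579 times in thymus (0.260 to 1.23). Over both tissues the ratio was 0.545 (0.30 to 0.970), an interval that reached 1 on leaving out any of 7 of the 12 libraries. The log2 fold changes were -0.67 ± 0.38 in lung (limma adjusted p = 0.342), -0.61 ± 0.38 in thymus (0.958) and -0.64 ± 0.27 for their average (0.184), none past the threshold. Per 100 molecules of the T cell genes, Ly9 had 6.04 in lung CD244+ and 5.07 in lung CD244- cells, so the direction in lung flipped with that scaling, while in thymus it had 3.10 in CD244+ and 4.77 in CD244- cells.

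Cd84, a receptor that binds itself, held 7, 4 and 4 molecules in the lung CD244+ libraries and 4, 3 and 6 in the lung CD244- libraries. In thymus it held 7, 11 and 10 molecules in the CD244+ libraries and 13, 10 and 8 in the CD244- libraries. The groups overlapped within each tissue. Pooled shares were 10.5 per 100000 (5.88 to 17.3) in lung CD244+ and 14.1 (7.52 to 24.2) in lung CD244- cells, and 14.6 (9.70 to 21.1) in thymus CD244+ and 15.9 (10.8 to 22.6) in thymus CD244- cells. Thymus CD244- cells came highest and lung CD244+ cells lowest, in an order in which no neighbours were separated. Between CD244+ and CD244- cells the 95% interval of limma's fold change was 0.503 to 1.33 in lung and 0.578 to 1.53 in thymus. Fold changes of such low genes are understated on the log2(value + 1) scale. The ratio of pooled shares was 0.744 (0.33 to 1.7) in lung and 0.916 (0.529 to 1.58) in thymus. Changes within these wider counting intervals could not be seen.

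Slamf7, a receptor (CRACC) also known from natural killer cells and macrophages, held 4, 3 and 4 molecules in the lung CD244+ libraries and 2, 0 and 3 in the lung CD244- libraries. In thymus it held 8, 7 and 3 molecules in the CD244+ libraries and 4, 3 and 4 in the CD244- libraries. Both pairs of groups overlapped. Pooled shares were 7.70 per 100000 (3.85 to 13.8) in lung CD244+ and 5.43 (1.76 to 12.7) in lung CD244- cells, and 9.38 (5.56 to 14.8) in thymus CD244+ and 5.66 (2.82 to 10.1) in thymus CD244- cells. Both CD244+ groups stood above both CD244- groups, with no neighbours separated. The CD244+ share was 1.42 times the CD244- one in lung (0.454 to 5.21) and 1.66 times in thymus (0.742 to 3.89). The log2 fold change was 0.42 ± 0.40 in each tissue (limma adjusted p = 0.630 in lung and 1.0 in thymus), and in lung it ranged from -0.03 to 0.71 with 1 library left out.

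Slamf1, the family's name-giving receptor (CD150), was close to undetected, with 1 molecule in lung CD244- replicate 1 and 1 in thymus CD244+ replicate 2. The 0 counts allow up to 2.10 per 100000 in lung CD244+ and 1.54 in thymus CD244- cells, and no comparison was possible at this depth.

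Cd48 encodes the ligand of CD244 and is carried by most blood cells. It held 8, 11 and 8 molecules in the lung CD244+ libraries and 4, 2 and 3 in the lung CD244- libraries. In thymus it held 8, 9 and 5 molecules in the CD244+ libraries and 9, 8 and 9 in the CD244- libraries. Per 100000 molecules, the lung CD244+ libraries (16.4, 25.9 and 15.6) were all above the lung CD244- ones (13.5, 6.63 and 9.32), and the thymus CD244+ libraries (11.1, 14.2 and 8.83) overlapped the thymus CD244- ones (13.3, 12 and 15).

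Pooled shares of Cd48 were 18.9 per 100000 (12.5 to 27.5) in lung CD244+ and 9.78 (4.47 to 18.6) in lung CD244- cells, and 11.5 (7.19 to 17.4) in thymus CD244+ and 13.4 (8.73 to 19.6) in thymus CD244- cells. The lung groups held the highest and the lowest share, with the thymus groups between them and overlapping intervals throughout. In deposited units Cd48 averaged 3.73 ± 1.11 in lung CD244+ and 1.90 ± 0.666 in lung CD244- cells (SD, n = 3 each). The log2 fold change of 0.71 ± 0.35 did not pass (limma adjusted p = 0.249), and the ratio of pooled shares was 1.93 (0.883 to 4.67). In thymus the log2 fold change was -0.19 ± 0.35 (adjusted p = 1.0), and the difference between the tissues, 0.90 ± 0.50, did not pass either (0.464).

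The Cd48 result in lung turned on the scaling. Per 100 molecules of the T cell genes, Cd48 had 18.1 in lung CD244+ and 3.80 in lung CD244- cells, and 5.69 in thymus CD244+ and 5.91 in thymus CD244- cells. With every library scaled to those T cell genes, Cd48 passed in lung, with a log2 fold change of 1.83 and an adjusted p of 0.000595 (limma). Under that scaling 38.3% of all 5605 genes tested were called in lung, 99.4% of them higher in CD244+ cells. Their median was 0.86, so Cd48 stood 0.98 above it. Under the same scaling Slamf7 passed in lung as well, at 1.31 (adjusted p = 0.0176), which is 0.46 above that median. The myeloid marker sum was high in the same 3 lung CD244+ libraries, and its part in these values was not tested. The lung CD244+ library with the lowest myeloid sum, 78.7 per 10000, held 16.4 Cd48 molecules per 100000, and the others, with sums of 141 and 143, held 25.9 and 15.6. Against 70, 30 and 49 molecules of the T cell genes, in the same order, they held 8, 11 and 8 of Cd48. On that scale the library with the lowest myeloid sum had the lowest value, 11.4 per 100. The order thus depends on the scaling, and 3 libraries cannot show whether Cd48 follows the myeloid sum.

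Sh2d1a encodes SAP, which links the switch motif to Fyn. It held 2, 1 and 2 molecules in the lung CD244+ libraries and 0, 2 and 3 in the lung CD244- libraries. In thymus it held 7, 5 and 2 molecules in the CD244+ libraries and 3, 9 and 2 in the CD244- libraries. CD244+ and CD244- libraries overlapped in both tissues. Pooled shares were 3.50 per 100000 (1.14 to 8.17) in lung CD244+ and 5.43 (1.76 to 12.7) in lung CD244- cells, and 7.30 (3.99 to 12.2) in thymus CD244+ and 7.20 (3.94 to 12.1) in thymus CD244- cells. The thymus groups came above the lung groups, and no neighbours were separated. The 95% interval of limma's fold change between CD244+ and CD244- cells ran from 0.507 to 1.58 in lung and from 0.595 to 1.84 in thymus. The log2(value + 1) scale understates fold changes at these low values. The ratio of pooled shares had wider counting intervals, at 0.644 (0.148 to 2.8) in lung and 1.01 (0.448 to 2.29) in thymus. Per 100 molecules of the T cell genes, SAP RNA had 3.36 in lung CD244+, 2.11 in lung CD244-, 3.62 in thymus CD244+ and 3.18 in thymus CD244- cells. Without lung CD244- replicate 3 the lung CD244- value was 1.35, and without thymus CD244- replicate 2 the thymus CD244- value was 1.71.

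The comparison of CD244+ with CD244- cells sets the other genes beside the receptor that defined the gate. In the limma fit over 5138 genes, 0 of the 6 genes of the set that could be tested were called in lung, where 8.43% of all tested genes were called, and 0 of 6 in thymus, where 0.409% were. At an unadjusted p under 0.05 there were 2 in lung, Cd48 and Slamf6, against 19.6% of all tested genes, and 0 in thymus, against 5.94%. Averaged over both tissues 0 of 6 were called, against 4.71% of all tested genes, and 2 of 6, Ly9 and Slamf6, had an unadjusted p under 0.05, against 15.9%. The difference between the lung and the thymus effect was called for 0 of 6, against 3.27%, and had an unadjusted p under 0.05 for 0 of 6, against 12.5%. edgeR's filter on low counts kept none of the set, so that no second tool bears on these counts. In deposited units, Ly9 and Cd48 did not overlap between the lung groups and Cd244 did not in thymus. Across all tested genes the groups did not overlap for 21.4% in lung and 11.9% in thymus. The median log2 fold change of the 6 genes was -0.23 in lung and -0.14 in thymus, beside -0.01 and -0.02 for all tested genes. No library, left out singly, led to a call for any of the 6.

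**Figure D4:**
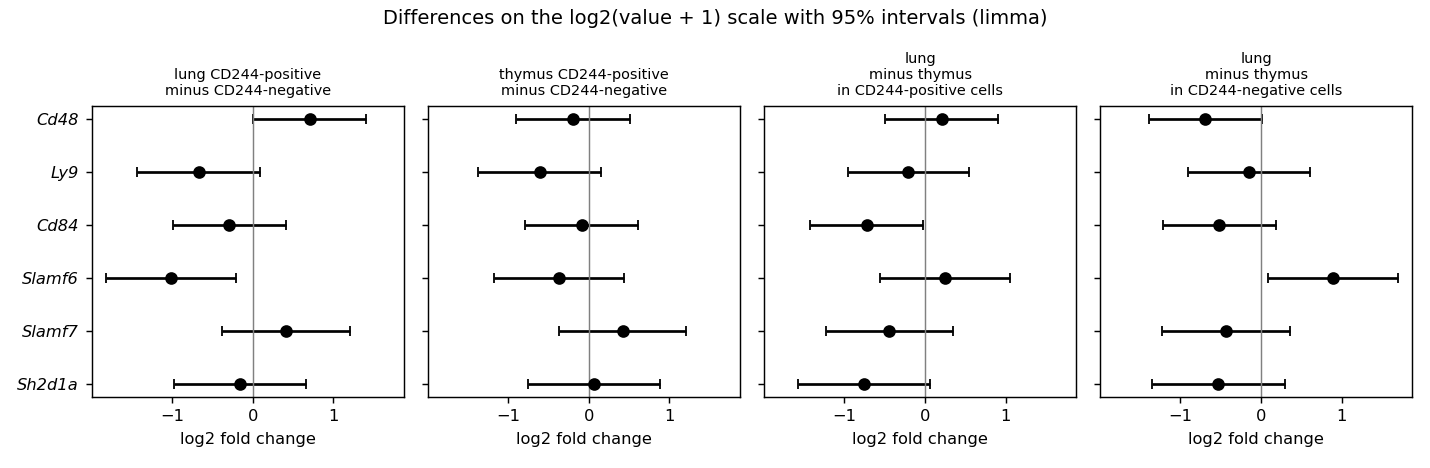
Log2 fold changes (on the log2(value + 1) scale) with 95% intervals from limma for the 6 tested genes in 4 comparisons, the first group named minus the second. Standard errors are 0.35 to 0.41, and no gene passed an adjusted p of 0.05. Slamf6 lies furthest below 0 in lung (-1.01) and Cd48 highest (0.71).

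Between tissues the deposited scale itself differs, since each lung library sums to 19342.9 units and each thymus library to 26890.5, and the median gene fell by 0.27 in CD244+ and by 0.29 in CD244- cells on the log2 scale, lung against thymus. Of the 6 genes, 0 were called in CD244+ cells, against 14.9% of all tested genes, and 0 in CD244- cells, against 10.7%. At an unadjusted p under 0.05 there was 1 in CD244+ cells, Cd84 (log2 fold change -0.72 ± 0.35, limma adjusted p = 0.181), against 26.0% of all tested genes. In CD244- cells there was 1 as well, Slamf6 (0.89 ± 0.41, limma adjusted p = 0.153), against 24.2%. In deposited units Sh2d1a in CD244+ cells and Cd48 in CD244- cells were lower in every lung library than in every thymus library, where 30.2% and 25.4% of all tested genes did not overlap. Per molecule neither held, and Cd48 in CD244+ cells was instead higher in every lung library. The share of all tested genes without overlap per molecule was not computed, so this Cd48 separation has no background beside it.

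Of 47 ratios of pooled shares that could be formed for the 8 genes, 8 had a counting interval wholly on one side of 1. These intervals are not adjusted for their number, and the ratios share molecules with one another. The same count was not made for all genes, so whether 8 of 47 is many cannot be said. The Cd244 difference between the thymus groups, and the same over both tissues, were the only ones of the 8 whose interval stayed there with each single library removed, and the gate was set on that protein.

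Of the related genes, Slamf8 had 1 molecule, in lung CD244+ replicate 3, and Sh2d1b1, the gene of the SAP relative EAT-2, had 1, in lung CD244+ replicate 1. Sh2d1b2 had 0. Slamf9, singled out after its values were seen, had 2, 2 and 5 molecules in the lung CD244+ libraries, the ones with the high myeloid sums, and 0 in the other 9. Cd2, the second receptor for CD48, held 15, 5 and 12 molecules in the lung CD244+ libraries and 4, 6 and 9 in the lung CD244- libraries, with a log2 fold change of 0.05 ± 0.35 (limma adjusted p = 0.961). In thymus it held 14, 12 and 9 molecules in CD244+ and 5, 5 and 10 in CD244- libraries, with 0.67 ± 0.35 (adjusted p = 0.855). Fyn, the kinase that SAP recruits, held 13, 12 and 9 molecules in the lung CD244+ and 13, 11 and 7 in the lung CD244- libraries, and its log2 fold changes, -0.40 ± 0.30 in lung and -0.47 ± 0.30 in thymus, did not pass (limma adjusted p = 0.518 and 0.959).

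A list of 39 genes around these receptors (relatives, kinases and adaptors, inhibitory phosphatases, and transcription factors of iNKT development) had 28 tested members. In thymus 0 of 28 rose in CD244+ against CD244- cells (0.331% of all tested genes did) and 0 fell (0.0779% did), with 1 at an unadjusted p under 0.05. In lung 3 of 28 rose in CD244+ cells, against 5.61% of all tested genes, and 3 fell, against 2.82%; the list's median was -0.16. Ptpn6, the gene of the inhibitory phosphatase SHP-1, held 7, 9 and 9 molecules in lung CD244+ and 1, 0 and 0 in lung CD244- libraries (log2 fold change 1.89 ± 0.35, limma adjusted p = 2.38e-05). Egr1, an early-response transcription factor, held 11, 17 and 21 against 0, 1 and 2 (2.28 ± 0.40, adjusted p = 1.03e-05). Gata3, a transcription factor of T cells, held 9, 2 and 6 against 20, 13 and 10 (-1.67 ± 0.30, adjusted p = 1.41e-05), and Dok2, an inhibitory adaptor, 3, 8 and 2 against 8, 12 and 11 (-1.51 ± 0.34, adjusted p = 0.000762). The lung groups did not overlap in molecules for Ptpn6, Egr1 and Gata3, and met at 8 for Dok2, though the CD244+ libraries were deeper. Corrected for depth they did not overlap for any of the 4 genes, nor for 21.4% of all tested genes. The 4 were named because they were called from these same values, so their separation adds no support.

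Bcl10, an adaptor in signalling to NF-kappaB, was called at 1.24 (limma adjusted p = 0.0322), a call lost on leaving out any of 5 libraries (adjusted p up to 0.167). Scaled to T cell genes, Dok2 and Gata3 no longer passed in lung (-0.54 and -0.69, adjusted p = 0.315 and 0.135), and the myeloid and T cell marker sums given above move with all of these lung values; their part was not tested. Averaged over both tissues 0 of the 28 rose and 2 fell, Dok2 (-0.98 ± 0.24, limma adjusted p = 0.00416) and Gata3 (-0.94 ± 0.21, adjusted p = 0.00143), where 3.41% of all tested genes rose and 1.3% fell. With scaling to T cell genes neither passed (Dok2 -0.41, limma adjusted p = 0.324; Gata3 -0.36, adjusted p = 0.321), and in edgeR Gata3 did not (-0.79, adjusted p = 0.0813). The lung effect exceeded the thymus effect for 2 of the 28, Ptpn6 and Egr1, against 2.65% of all tested genes, and lay below it for 1, Gata3, against 0.623%. Zbtb16, which encodes the iNKT lineage factor PLZF, held 1, 1 and 1 molecules in lung CD244+ and 4, 3 and 1 in lung CD244- libraries, and 4, 5 and 4 in thymus CD244+ and 12, 9 and 4 in thymus CD244- libraries, without a call.

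Ptpn6 also set the tissues apart in CD244- cells, where it was likewise named because it was called from these same values. The cause was not tested. The lung CD244- libraries held 1, 0 and 0 molecules of Ptpn6 and the thymus CD244- libraries 26, 26 and 19. They did not overlap, nor did these groups for 25.4% of all tested genes in deposited units. The ratio of pooled shares was 0.0298 (0.000743 to 0.171), and the log2 fold change was -3.18 ± 0.35 (limma adjusted p = 4.33e-12). Rasa1, a negative regulator of Ras recruited by SLAM receptors through Dok proteins, held 2, 5 and 0 against 21, 17 and 11 molecules (-1.83 ± 0.37, adjusted p = 0.000144), and Bcl10 fell too (-1.57 ± 0.40, adjusted p = 0.00309). These 3 of 28 fell, against 8.52% of all tested genes, and 0 rose, against 2.18%. The 3 calls held with each library left out, and that of Bcl10 was lost with scaling to T cell genes (-1.33, limma adjusted p = 0.141). In CD244+ cells, lung against thymus, 1 of the 28 rose, where 5.27% of all tested genes did, and 7 fell, where 9.61% did. Egr1 rose by 2.56 ± 0.40 (limma adjusted p = 2.97e-07) and Gata3 changed by -1.72 ± 0.30 (adjusted p = 3.24e-06), and both held with each library left out, while Gata3 did not pass with scaling to T cell genes (-0.63, adjusted p = 0.209) or in edgeR (-1.13, adjusted p = 0.0508). Lck, Prkcq, Lat, Dok2, Nfatc2 and Tbx21, called at -1.33 to -0.89, each lost the call on leaving out 1 library, with adjusted p up to 0.330. With every library scaled to a common total, Egr1 and Gata3 were the 2 calls of the list that were left. GENCODE places genes on the opposite strand over Ptpn6, Gata3, Dok2 and Rasa1, so reads of those could be included if strand was not used.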

How the data were processed

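The data are the authors' gene expression values for 12 libraries. Per the labels' protocols, unique molecular identifiers sat in the oligo-dT primer, and template switching, PCR and ERCC spike-in RNA were used; the submitters' processing notes name STAR and the mm10 build. The version, counting step, annotation and scaling formula are not given in the sources used here. The deposited values are a signal per gene: a molecule count times 1 constant per library. Between 94.3% and 95.9% of nonzero values in a library were whole molecules (tolerance 1e-06), including all values of the 8 genes; Bcl10 holds fractions. The table has 0 ERCC rows.

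Molecules were recovered by dividing by the constant. Pooled shares have exact Clopper-Pearson intervals (95%); intervals and floors (3 molecules over a group) cover counting error only. limma 3.58.1 (R 4.3.3, trend and robust) was fitted to log2(value + 1), in 1 model of 4 groups, for 5138 genes above 1 in at least 3 libraries. Fold changes on this scale understate those of low genes. Tests were two-sided, adjusted by Benjamini-Hochberg over all tested genes, threshold 0.05; the smallest p of an exact test with 3 libraries a group is 0.1. The procedure was tested on simulated data. Changes were placed only in genes expected to hold at least 3 molecules in the shallowest library. It therefore does not bear on the rarer genes of the set, which are Cd244, Slamf1, Slamf6, Slamf7, Ly9 and Sh2d1a. The simulation also used the same spread in all groups, while the lung CD244+ replicates varied more than those of the other groups.

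The genes, lists and tests were chosen with earlier results of these data known. Named were the 8 genes, list genes called in any comparison, and Cd2, Fyn, Sh2d1b1 and Zbtb16; genes most alike to a called member were to be named, and no member was called. The values of 1 called list gene are not reported here. Of the marker lists, 11 of 14 T and iNKT and 7 of 9 B cell genes were in the table; the others were not analysed here.

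Alternatives were quantile normalization, a common total, scaling to 7 T cell genes, no filter, a filter at 5, pseudocounts of 0.5 and 5, the compared libraries alone, quality weights, a replicate block, each library left out, and edgeR 4.0.16 (quasi-likelihood, TMM) on recovered molecules of the 9 libraries in which whole steps could be read. Replicates were not identical. Positions and sequences came from GENCODE M21 (GRCm38).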

Additional observations from a re-analysis of the deposited data

Results flagged for a closer look

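The CD244 effect differed between lung and thymus for 3 genes of the list around the SLAM receptors, by the test of the difference itself (the interaction in limma, lung effect minus thymus effect). Ptpn6 differed by 2.24 ± 0.49 on the log2 scale (adjusted p = 0.00146), with 1.89 ± 0.35 in lung and -0.35 ± 0.35 in thymus. Egr1 differed by 3.37 ± 0.57 (limma adjusted p = 1.27e-05), with 2.28 ± 0.40 in lung and -1.09 ± 0.40 in thymus. Gata3 differed by -1.47 ± 0.42 (limma adjusted p = 0.0303), with -1.67 ± 0.30 in lung and -0.20 ± 0.30 in thymus, and this call was lost without any of 7 of the 12 libraries (adjusted p up to 0.229). It was also lost with scaling to T cell genes (-0.66, adjusted p = 0.428) and when 5 was added before taking logs (-0.80, adjusted p = 0.0724). In edgeR on 9 libraries neither the Egr1 difference (5.29, adjusted p = 0.0827) nor the Gata3 difference (-1.35, adjusted p = 0.257) passed. Of all tested genes, 3.27% differed in this way. The summed myeloid markers were high in lung CD244+ libraries only, and their part in these values was not tested.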

How the results depend on the processing

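None of the 6 tested genes of the set was called in any of the 6 comparisons, and this held with quantile normalization, a common total, pseudocounts of 0.5 and 5, the compared libraries alone, quality weights and each library left out (0 calls to 0). Whether the replicate numbers pair the samples is not known. Same-number correlations were -0.028 to 0.016, but counting noise at this depth could hide a pairing. With a replicate block 0 of the set were called and the whole table had 19 calls in thymus and 428 in lung. Scaling to T cell genes, which raised the median of all genes in lung CD244+ libraries, called 2 of 7 of the set in lung, against 38.3% of all tested genes, 3 in the average, against 22%, 1 in the difference between tissues, against 11.6%, and 1 between tissues in CD244+ cells, against 25.8%; removing the filter called 1 of 8 in the average, against 1.92%, and 1 between tissues in CD244+ cells, against 7.31%, each time Cd244. The filter at 5 and edgeR tested 0 of the set.

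Of the list around the receptors, scaling to T cell genes called 13 of 30 in lung, 8 in the average and 5 in the difference between tissues, to be read against the same shares of all genes. edgeR tested 12 of the list. It called 1 in the average, against 5.63% of all genes it tested, and 1 in the difference, against 1.73%. Between tissues in CD244+ cells edgeR called 1, against 25.5%. There quantile normalization called 3 of 28, against 11.4% of all tested genes, and a common total 2 of 29, against 10.9%. With each library left out, 2 to 4 of 28 were called in the average, against 2.22% to 5.23% of all tested genes. Between tissues in CD244+ cells 3 to 10 of 28 were called, against 9.61% to 16.0%. The cause was not tested.

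Directions turned mostly with scaling to T cell genes, none of them past the threshold. For CD244+ against CD244- cells the log2 fold changes became 0.06 for Cd84 in thymus, 0.21 for Ly9, 0.72 for Cd84, 0.56 for Sh2d1a and 0.79 for Fyn in lung, and 0.39 for Cd84 and 0.35 for Sh2d1a in the average. The difference between tissues became 0.81 for Slamf7, 0.67 for Ly9, 0.66 for Cd84 and 0.42 for Sh2d1a. For lung against thymus in CD244+ cells they became 0.60 for Slamf7, 0.75 for Ly9, 0.39 for Cd84, 0.02 for Sh2d1a, 0.38 for Lck, 0.09 for Lat and 0.09 for Dok2, and in CD244- cells 0.08 for Ly9. Other settings turned the Slamf7 difference between tissues (0.07 with a common total, 0.13 with a pseudocount of 0.5) and Ly9 for lung against thymus (0.06 in CD244+ and 0.20 in CD244- cells with a common total, 0.10 in CD244- cells with quantile normalization).

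With each library left out, directions turned in these ranges. In thymus Slamf6 ran from -0.71 to 0.08, Cd84 from -0.20 to 0.13 and Sh2d1a from -0.18 to 0.46. In lung Slamf7 ran from -0.03 to 0.71, Sh2d1a from -0.61 to 0.13 and Cd2 from -0.18 to 0.36, and in the average Sh2d1a from -0.27 to 0.15. The difference between tissues ran from -0.46 to 0.29 for Slamf7, -0.25 to 0.20 for Ly9 and -0.67 to 0.07 for Sh2d1a. For lung against thymus, CD244+ cells ran from -0.08 to 0.54 for Slamf6 and -0.39 to 0.06 for Ly9, and CD244- cells from -0.73 to 0.01 for Slamf7 and -0.33 to 0.04 for Ly9.

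Over the whole table, calls in lung numbered 433, against 2145 with scaling to T cell genes, 173 with edgeR (1154 genes tested) and 179 to 423 with a library left out; in thymus 21, against 10, 12 and 10 to 22. The average had 242 calls, against 1234, 65 and 108 to 261, and the difference between tissues 168, against 649, 20 and 48 to 152. The filter at 5 left 250 calls in lung, 157 in the average, 104 in the difference and 453 between tissues in CD244+ cells. The calls between tissues numbered 1444 with scaling to T cell genes and 294 with edgeR in CD244+ cells (473 to 799 with a library left out), and 122 and 213 in CD244- cells, where quantile normalization gave 295. With scaling to T cell genes 99.4% of the calls in lung were higher in CD244+ cells, against 66.5% on the deposited scale. Between tissues in CD244+ cells 35.4% of 765 calls were higher in lung, against 63.7% of 568 with a common total, and in CD244- cells 20.4% of 550, against 51.8% of 311. Depth limits every value of the set, which rests on 2 to 87 molecules a gene over 12 libraries.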
